A study of Mus musculus with 2 samples.

Results

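The genes described here are the ligands of the interferon, interleukin and chemokine families. The question is where called peaks of the repressive histone mark H3K9me2 lay around them in activated mouse B cells. Members were chosen by symbol among the RefSeq genes of GRCm38.p6 (mm10): autosomal protein-coding genes that begin with Ifna, Ifnb, Ifng, Ifnk, Ifnl or Ifnz, or with Il, Ccl or Cxcl and a digit. Receptors and receptor chains were left out, as were Il18bp, Il4i1 and Il4i1b, which encode a binding protein and enzymes and not ligands. This gave 94 of 20554 autosomal protein-coding genes, namely 20 interferons, 38 interleukins, 24 CC chemokines and 12 CXC chemokines. Members no more than 500 kb apart were joined into 43 loci, of which 26 held a single gene, so the 94 genes are not independent of each other.

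The study mapped H3K9me2 by CUT&Tag, an assay that tags the DNA beside an antibody-bound mark. The 2 libraries came from activated B cells from C57BL/6 mice, 1 from wild-type mice (WT) and 1 from mice labelled as a B cell knockout of jmjd1c (KO), a gene of the jumonji family that holds H3K9 demethylases. The labels used here do not name the Cre driver, the activating agent, the age or the number of mice. The WT peak list rested on 33474010 tags with 29528 autosomal peaks and the KO list on 34502392 tags with 30144 autosomal peaks, so depth was close. With 1 library per genotype no difference below has a replicate check, no p-value was computed, and 95% intervals cover counting error only. A peak list does not measure RNA, so it cannot check the cell type by expression.

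H3K9me2 is laid down by the methyltransferases G9a and GLP and removed by jumonji-domain demethylases, and it is known for silenced genes in gene-poor chromatin. Cytokine genes are mostly short, sit in clusters of tandem copies, and are silent until a stimulus switches on a few of them, which makes their chromatin a common subject in lymphocytes. Interferons signal antiviral defence, interleukins direct growth and differentiation of leukocytes, and chemokines guide cell migration. Activated B cells themselves are known to make several of these, among them Il6, Il10, Ccl3, Ccl4 and Ccl22.

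The single promoter among the members that H3K9me2 peaks reached was that of Il1f8, which encodes interleukin 36 beta, a member of the interleukin 1 family best known in skin. Its 250 bases before the annotated start lie at chr2:24152922-24153171 on the plus strand (RefSeq, GRCm38.p6). They are shown because peaks of both libraries overlapped there, and capitals mark the 31 bases under both peaks.
Il1f8: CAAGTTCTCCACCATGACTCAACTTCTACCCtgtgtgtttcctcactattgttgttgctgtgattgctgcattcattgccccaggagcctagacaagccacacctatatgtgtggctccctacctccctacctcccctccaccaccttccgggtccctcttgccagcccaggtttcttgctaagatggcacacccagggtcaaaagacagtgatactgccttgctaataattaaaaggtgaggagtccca
The WT peak ran from 24152428 to 24152952 on chromosome 2 and covered the first 31 of these bases, ending 220 bp before the gene. The KO peak ran from 24152710 to 24153132 and covered the first 211, ending 40 bp before the gene. The promoter table held a window of 250 bases before to 50 after the start for 73 of the 94 members and for 16456 autosomal coding genes. Among the 73, only Il1f8 had its window overlapped, in WT and KO alike, a share of 1.37%. The shares over all genes were 1.37% in WT, 1.36% in KO and 0.766% in both, so 1 member is near that background.

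In the type I interferon cluster a lone WT peak fell between Ifna14 and Ifna9, away from their promoters. Type I interferon promoters are known to be switched on by interferon regulatory factors (IRFs), which bind the motif AANNGAAA. The bases from 250 to 101 before the annotated start are shown for the 2 alpha genes beside that peak and for Ifnb1, the interferon beta gene, with matches to AANNGAAA or its reverse complement TTTCNNTT in capitals. All 3 genes lie on the minus strand (RefSeq, GRCm38.p6), at chr4:88522895-88523044 for Ifnb1, chr4:88571899-88572048 for Ifna14 and chr4:88592486-88592635 for Ifna9.
Ifnb1: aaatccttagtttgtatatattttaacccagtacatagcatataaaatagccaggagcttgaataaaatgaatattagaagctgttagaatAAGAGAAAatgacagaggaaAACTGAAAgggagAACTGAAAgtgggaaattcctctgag
Ifna14: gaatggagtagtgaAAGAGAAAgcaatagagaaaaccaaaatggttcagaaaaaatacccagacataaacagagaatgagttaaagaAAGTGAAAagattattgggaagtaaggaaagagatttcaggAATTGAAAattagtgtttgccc
Ifna9: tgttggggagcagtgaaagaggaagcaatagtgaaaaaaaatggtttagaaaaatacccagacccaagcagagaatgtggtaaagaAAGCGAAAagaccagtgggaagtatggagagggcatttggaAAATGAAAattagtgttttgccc
Ifnb1 and Ifna14 held 3 matches each and Ifna9 held 2. Of the 16 type I interferon genes with a promoter window, 11 held a match in these 150 bases (68.8%), against 11 of 57 other members (19.3%) and 13.9% of all 16456 coding genes. For 7 of the Ifna genes the annotated start is the ATG of the coding sequence, so their windows sit closer to the coding sequence than those of the others. These 7 were 64.1% to 88.9% identical to each other in pairwise alignments of the 150 bases, with a median of 73.4% over 21 pairs. All 12 Ifna genes with a window were 42.0% to 88.9% identical, with a median of 52.4% over 66 pairs, where differing annotated starts shift the windows against each other. Reads from similar copies can be placed on the wrong gene, and the handling of such reads is not given in the sources used here. A match says only that the letters are present, and none of these windows was overlapped by a peak in either library.

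With a window of the gene body plus 2 kb before and after it, 3 of the 94 members had an H3K9me2 peak in WT and 2 in KO. Il7 and Il1f8 had peaks in both libraries, Ccl20 in WT only, and no member in KO only. The shares were 3.19% in WT (0.663 to 9.04%, exact Clopper-Pearson interval) and 2.13% in KO (0.259 to 7.48%). Over all autosomal coding genes 9.45% had a peak in WT and 9.66% in KO, 7.68% in both, 1.77% in WT only and 1.99% in KO only. The members' 1 gene in WT only (1.06%) and 0 in KO only are near that background. The other 91 members (96.8%) had no peak in either library, against 88.6% of all genes.

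**Figure D1:**
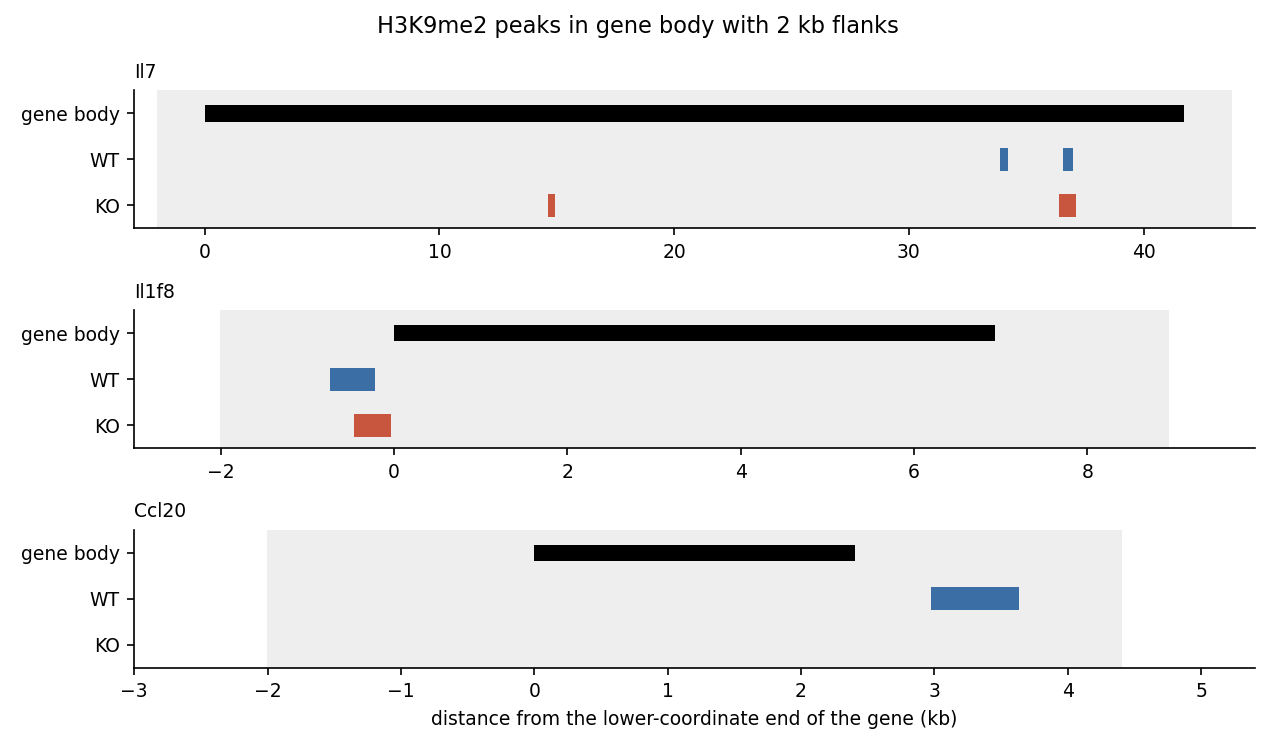
Peaks of the 3 members with a peak in their window. The horizontal axis is the distance in kb from the lower-coordinate end of the gene, black bars are gene bodies, blue bars WT peaks, red bars KO peaks, and the grey area is the window. The Il7 peaks lie inside the gene, those of Il1f8 just before it and the Ccl20 peak after it.

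Il7, which encodes the survival factor that stroma makes for lymphocyte precursors, held 2 peaks in each library. It spans chromosome 3 from 7572028 to 7613760. The WT peaks ran from 7605888 to 7606251 and from 7608577 to 7609030, and the KO peaks from 7586656 to 7586938 and from 7608406 to 7609164. Only the last site of each list was common to both. Within their lists the Il7 peaks ranked high: the authors' −log10 q-values of 7.70 and 8.09 were at percentiles 97.2 and 97.6 of the autosomal WT peaks, and those of 4.10 and 4.94 at percentiles 82.3 and 91.3 of the KO peaks. The authors' fold enrichments were 3.24 and 3.27 in WT, against a list median of 2.70, and 3.46 and 3.28 in KO, against 3.06.

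The Il1f8 peaks were weak ones. Their −log10 q-values were 2.35 in WT and 2.33 in KO, just above the calling threshold of 2, at percentiles 6.90 and 8.97 of their lists. The 4 members that follow Il1f8 within the same locus, Il1f9 and Il1f6 (interleukin 36 gamma and alpha), Il1f5 (the interleukin 36 receptor antagonist) and Il1f10, had no peak in their windows. Il1f9 was the nearest of them, at 8483 bp from a WT peak and 33344 bp from a KO peak.

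Ccl20, which encodes the ligand of the chemokine receptor CCR6 that B cells carry, lies on chromosome 1 from 83116766 to 83119167 on the plus strand. A WT peak from 83119738 to 83120398 began 571 bp past its 3′ end, with a −log10 q-value of 3.61 at percentile 61.1 of the WT list. The nearest KO peak was 11270 bp from the gene, and the WT peak itself had no KO partner. Across autosomes 46.8% of WT peaks had an overlapping KO peak, and a peak without a partner is the more common case.

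Member windows are short, with a median of 8220 bp against 21590 bp for all coding genes. Shares were therefore compared by window length. Of the 64 members with windows under 10 kb, 1 had a WT peak (Ccl20) and 0 had a KO peak, or 1.56% and 0%, against 6.59% and 6.65% of the 5142 coding genes of that length. In the 10 to 20 kb class 1 of 19 members (Il1f8, 5.26% in both libraries) compared with 3.35% and 3.59% of all genes. In the 20 to 50 kb class 1 of 7 members (Il7, 14.3%) compared with 5.25% and 5.32%. The 4 members with windows of 50 kb or more, among them the T cell chemoattractant gene Il16 and the gamma chain cytokine gene Il15, had none, whereas 22.7% and 23.2% of all such genes did. When the shares of all genes were weighted to the members' length classes, they came to 6.52% in WT and 6.64% in KO, above the members' 3.19% and 2.13% but inside their intervals.

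**Figure D2:**
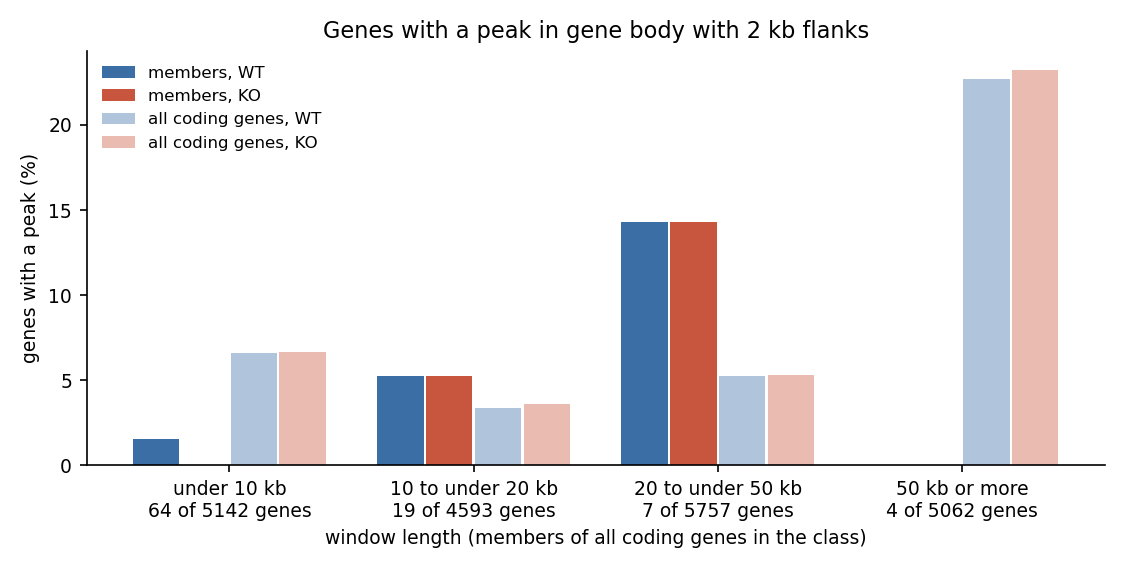
Share of genes with a peak in the gene body with 2 kb flanks (vertical axis, %), by window length (horizontal axis, with the number of members and of all coding genes). Solid bars are members and pale bars all coding genes, blue for WT and red for KO. Each member bar above 0 stands for 1 gene, and 64 of the 94 members are in the shortest class.

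The merged member windows covered 1.24 Mb and held 4 WT and 3 KO peaks, or 3.23 per Mb (0.879 to 8.26, exact Poisson interval) and 2.42 per Mb (0.499 to 7.07). All coding windows held 8.70 per Mb in WT and 8.88 in KO, above both intervals. These rates were not matched for window length, unlike the weighted shares above, which lay inside the members' intervals. Il7 alone held 2 peaks in each library, whereas the Poisson interval takes peaks as independent. Peaks covered 0.162% of the member windows in WT and 0.118% in KO, against 0.489% and 0.401% of all coding windows. Covered length depends on the caller's fragment length d, which was 292 bp for WT and 189 bp for KO, so the covered shares of the libraries are not set against each other.

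The type I interferon cluster on chromosome 4 was nearly free of H3K9me2 peaks in both libraries. It runs from Ifnb1 at 88522025 to Ifna1 at 88850656, a span of 328632 bp with 32 protein-coding genes. Of these 16 are members (Ifnb1, 13 Ifna genes, Ifnab and Ifnz), 14 are predicted genes with Gm symbols, and 2 are others, Klhl9 and Pramel32. The span held 1 WT peak (0.0253 to 5.57, exact Poisson interval) and 0 KO peaks (0 to 3.69 by the same interval). By the simpler one-sided limit of 3 counts, a count of 0 allows up to 9.13 peaks per Mb. Autosomes carried on average 12.3 WT peaks and 12.5 KO peaks per Mb, which corresponds to 4.04 and 4.12 peaks over this length. Of 7299 autosomal tiles of the same length, 51.6% held at most 1 WT peak and 40.8% held no KO peak. Among the 524 tiles with 10 or more coding genes these shares were 83.2% and 76.7%, so an interval this empty is usual where genes are dense.

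The lone WT peak in the cluster lay from 88584793 to 88585278, 12995 bp from Ifna14, 6535 bp from Ifna9 and 17302 bp from Ifna12. It was 486 bp wide with a fold enrichment of 2.74 and a −log10 q-value of 2.24, at percentile 3.17 of the WT list, so it only just passed the threshold of 2. In KO, the cluster lay whole in a stretch of 1658658 bp without a peak, from 87303304 to 88961961, longer than 99.2% of the stretches between KO peaks. In WT the lone peak split the region into stretches of 1019360 bp, with 3 of the interferon genes (Ifnb1, Ifna15 and Ifna14), and 390194 bp, with the other 13. The median stretch was 17.7 kb in WT and 17.9 kb in KO. Each stretch counts once here whatever its length, whereas 40.8% of the tiles of cluster length held no KO peak.

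The flanks of the cluster differed from each other. The 500 kb before Ifnb1 held 0 peaks in either library, and the 500 kb after Ifna1 held 6 WT peaks (2.2 to 13.1) and 9 KO peaks (4.12 to 17.1), a KO to WT ratio of 1.5 (0.477 to 5.12). The ratio's interval includes 1. The peaks gathered from 111.6 to 195.9 kb past Ifna1, with 5 WT and 8 KO peaks between these distances. Of them, 3 WT and 5 KO peaks overlapped the long noncoding RNA gene Gm34568. A further peak lay 414 kb past Ifna1 in both libraries, from 89264700 to 89265066 in WT and from 89264680 to 89265075 in KO. With fold enrichments of 9.93 and 10.8 it was at percentile 99.6 of each list by q-value, and this was the strongest peak of the region in either library.

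**Figure D3:**
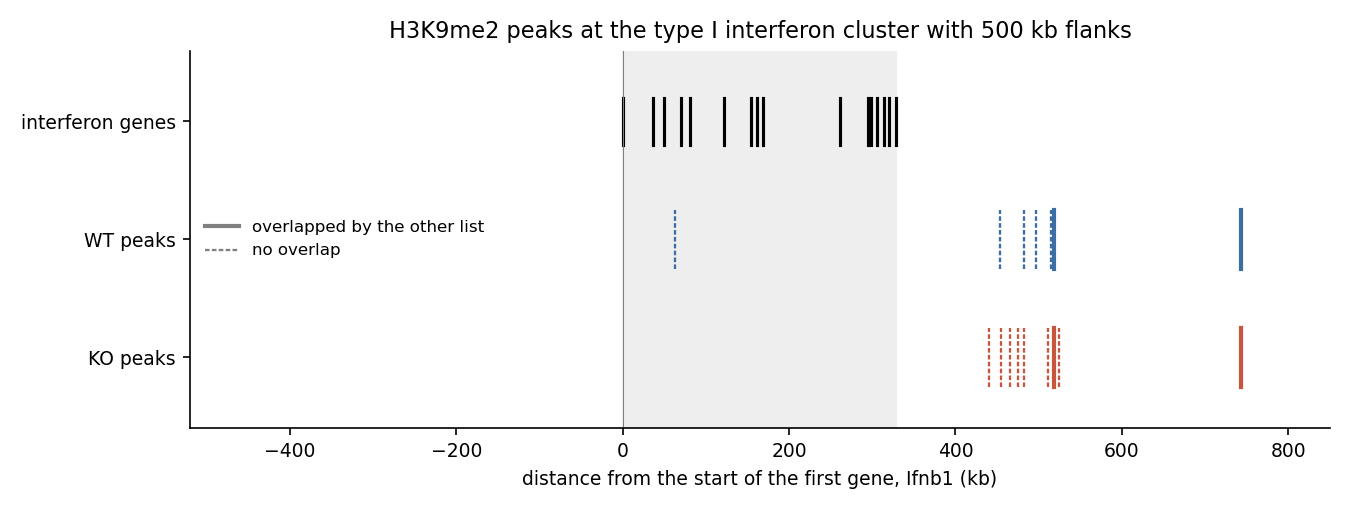
Map of the type I interferon cluster (grey) with 500 kb flanks; the horizontal axis is the distance from the start of Ifnb1 in kb. Upper ticks are the 16 interferon genes, the middle row WT peaks and the lowest row KO peaks, with thick solid ticks for peaks overlapped by the other list. The WT row has 7 peaks, 1 of them inside the cluster, and the KO row has 9, all past its last gene.

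Over the cluster with both flanks there were 7 WT peaks (2.81 to 14.4) and 9 KO peaks (4.12 to 17.1), a ratio of 1.29 (0.426 to 4.06). At the autosomal average this length would hold 16.3 and 16.7 peaks. Peaks of both lists overlapped at 2 sites, which were 28.6% of the WT peaks (3.67 to 71.0%) and 22.2% of the KO peaks (2.81 to 60.0%), against 46.8% and 46.1% across autosomes, values inside both intervals. The 5 non-overlapping WT peaks and 7 non-overlapping KO peaks in the same region are single-library calls.

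Ifnk, a type I interferon gene of skin that lies apart from the cluster on chromosome 4 from 35152055 to 35154019, had no peak in its window. Its nearest peak was 119338 bp away in WT and 143855 bp away in KO. Within 250 kb of the gene there were 7 WT peaks and 2 KO peaks, a ratio of 0.286 (0.0290 to 1.5). Both KO peaks were at WT sites.

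The type II and type III interferon genes lay far from any peak. Ifng, the interferon of T cells and natural killer cells on chromosome 10, was 884432 bp from a peak in WT and 884530 bp in KO, at the same site. Ifnl2 and Ifnl3, which act mainly on epithelia, were 1747389 and 1761438 bp away in WT and 1187377 and 1173508 bp away in KO. Ifnl2 and Ifnl3 lie in the same locus and share their nearest peak in each library. All 3 genes had 0 peaks within 250 kb in either library, as had 53.9% of all coding genes. Over all coding genes the nearest peak was over 1 Mb away for 24.6% in WT and 22.7% in KO.

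Measured from the gene body, the median distance of a member to the nearest peak was 426 kb in WT and 437 kb in KO. The medians over all autosomal coding genes were 358 kb and 336 kb. A peak lay within 20 kb of 9 members in WT (9.57%) and 8 in KO (8.51%), against 14.9% and 15.4% of all genes. The nearest peak was over 1 Mb away for 14 members in WT (14.9%) and 15 in KO (16.0%), against 24.6% and 22.7%, so both shares were under the background, a difference that was not tested. Since members share loci, the 94 distances came from 44 different peaks in WT and 43 in KO. For 13 members (13.8%) the nearest peaks of the lists overlapped, against 30.7% of all coding genes. For the other 81 they did not: the peak was nearer in WT for 50 (53.2%, against 32.0% of all genes) and nearer in KO for 31 (33.0%, against 36.2%). Of these 50 and 31, 9 and 7 were genes of the type I interferon cluster, which share their nearest peaks. All 6 genes of the Ccl2 to Ccl1 locus and all 5 of the Ccl5 to Ccl4 locus were also nearer in WT. Those chemokine genes share the same nearest peak in each library. The difference from all genes was not tested.

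By role, the type I interferons had the shortest WT median of the 10 roles, 105 kb over 17 genes, and a KO median of 271 kb. For the 9 cluster genes from Ifnb1 to Ifnab the nearest WT peak was the lone weak one, at 6535 to 105321 bp, whereas in KO it was the first peak past Ifna1, at 270694 to 439168 bp. For the 7 genes from Ifnz to Ifna1 the nearest peaks of both libraries lay past Ifna1, at 124817 to 191881 bp in WT and 111306 to 178370 bp in KO. A single peak near the calling threshold thus set the WT distances of 9 genes.

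**Figure D4:**
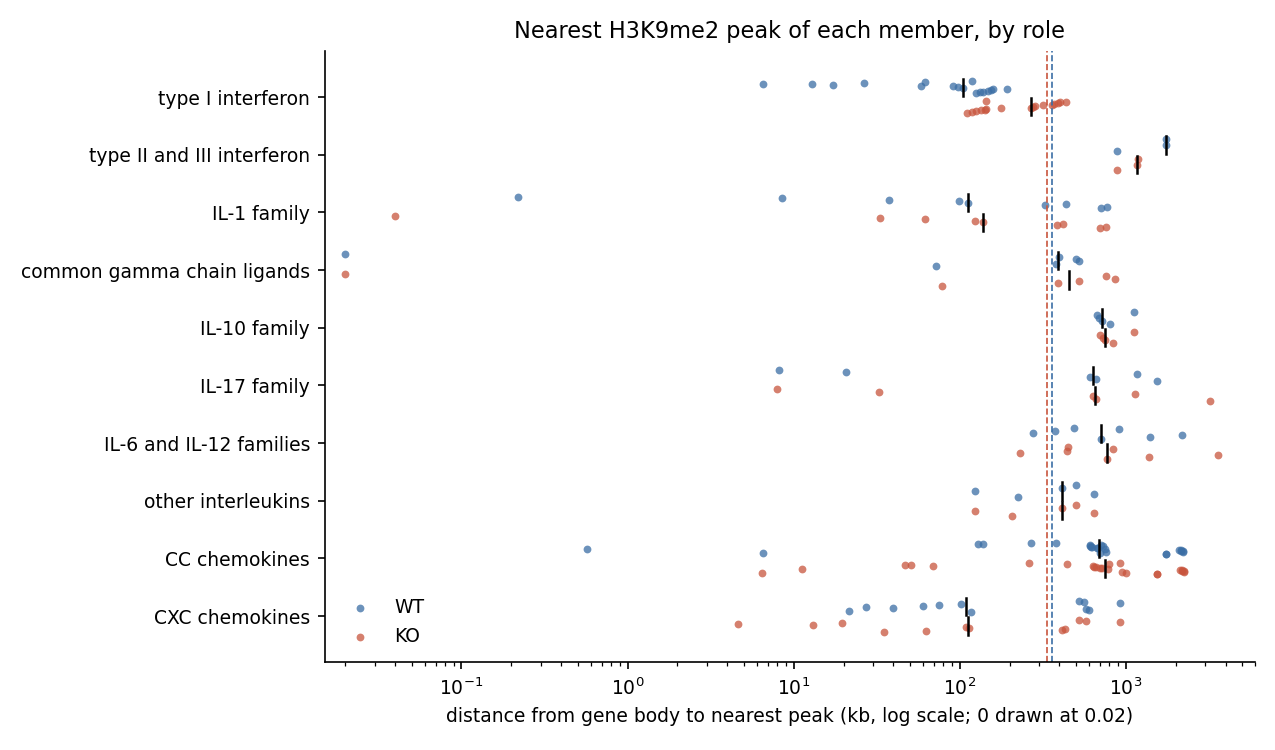
Distance in kb from each member's gene body to the nearest peak (log scale, 0 drawn at 0.02 kb), by role; blue points are WT, red points KO, black ticks medians of a role, and dashed lines the medians of all coding genes (358 kb in WT and 336 kb in KO). In KO, 10 of the 17 type I interferons lie farther from a peak than in WT and 7 lie nearer, and their median moves from 105 to 271 kb.

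Among the interleukins the median distance was 497 kb in WT and 513 kb in KO. The 5 genes of the interleukin 10 family were 669 to 1120 kb from a peak in WT and 705 to 1120 kb in KO. Of these, Il24, Il20, Il19 and Il10 lie in the same locus and share their nearest peak in each library. Il10, the anti-inflammatory cytokine that regulatory B cells make, was at 807051 and 842780 bp. In the interleukin 17 family, Il17a, the signature cytokine of Th17 cells, was 8174 bp from a WT peak and 7967 bp from a KO peak at the same site. Its neighbour Il17f was at 20768 and 32682 bp, and the other 4 genes of the family were beyond 600 kb in both libraries. Of the common gamma chain ligands, Il2 and Il21, neighbours on chromosome 3, were at 399018 and 501064 bp in WT and 762664 and 864710 bp in KO. Il4, the class switch cytokine, was at 521294 and 521382 bp. Il6, a growth factor of plasma cells, was at 908618 and 838147 bp. In all these cases except Il17a and Il17f the 250 kb around the gene held 0 peaks in both libraries, as for 53.9% of all coding genes.

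The chemokines had medians of 607 kb in WT and 608 kb in KO. The farthest of the 24 CC chemokines were the inflammatory genes Ccl3 and Ccl4 on chromosome 11, at 2219217 and 2219998 bp in WT and 2250987 and 2251768 bp in KO. Next to them Ccl5, a T cell attractant, was at 2097152 and 2128922 bp. Ccl22, which draws T cells to B cells, was at 766528 and 948778 bp. The 6 genes of the Ccl27a to Ccl21a locus on chromosome 4, which attract lymphocytes to lymph nodes and skin, had 1 WT and 1 KO peak around them, at different sites. Ccl21d and Ccl21b, at 138956 and 129093 bp, were nearer in WT, and Ccl27b, Ccl19 and Ccl21a, at 46950 to 69224 bp, were nearer in KO. These genes are near-identical copies of each other in part, so reads may be misplaced among them. Of the CC chemokines without a peak in the window, the nearest was Ccl28, a mucosal chemokine gene on chromosome 13, at 6588 and 6492 bp from a common site. Of the CXC chemokines, the neutrophil attractant genes Cxcl3, Cxcl15 and Cxcl5 were at 4617, 13050 and 19671 bp in KO and 75297, 60323 and 101765 bp in WT. The KO peak nearest to them had no WT partner. In the same locus Cxcl1 and Cxcl2 went the other way, at 27247 and 39901 bp in WT and 109761 and 113601 bp in KO. Cxcl10, an interferon-induced attractant of T cells, was at 599775 and 413247 bp. Ccl6, a myeloid attractant near Ccl3, was at 2159260 and 2191030 bp. Outside the chemokines, Il31, the itch cytokine, was at 2177709 and 3585129 bp, and Il17c, an epithelial cytokine gene, at 1537849 and 3224871 bp.

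Counting peaks in the neighbourhood rather than in the gene, 39 members (41.5%) had at least 1 peak within 250 kb in WT and 32 (34.0%) in KO, and 28 (29.8%) had one in both. The shares over all coding genes were 42.3%, 43.6% and 39.8%. No peak of either library lay that near to 51 members (54.3%), against 53.9% of all genes. The share over all members is thus near the background, but all 51 lie outside the type I interferon cluster. Each of the 16 cluster genes had a WT peak that near. In the type I interferon cluster 9 genes had only the lone WT peak within 250 kb and no KO peak. In the 78 members outside the cluster 23 had a peak within 250 kb in WT (29.5%) and 25 in KO (32.1%). These shares were under the 42.3% and 43.6% of all coding genes. Of the 78, 51 had no peak that near in either library. Their median distance to the nearest peak, over all 78, was 587 kb in WT and 608 kb in KO. Over all coding genes it was 358 and 336 kb. Members share loci, and these differences were not tested.

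By locus, 28 of the 43 loci, with 50 members, held 0 peaks in either library between their first and last gene and 250 kb on either side. Among them were the Il24 to Il10, Il1a and Il1b, Il2 and Il21, Il4 to Il5, Il22 and Ifng, Ccl2 to Ccl1 and Ccl5 to Ccl4 loci. Loci were not built from all coding genes in this way, so the 28 have no background share. By gene, 54.3% of members and 53.9% of all coding genes had no peak within 250 kb in either library. A further 14 loci had peaks in both libraries, and Il12a had 1 in KO only. In all, the loci held 102 WT and 98 KO peaks. More peaks were counted in WT at 5 loci and in KO at 6, and for 0 of the 14 loci with peaks in both libraries did the interval of the ratio exclude 1. Within these loci 45.1% of WT peaks were overlapped by a KO peak and 48.0% of KO peaks by a WT peak, near the 46.8% and 46.1% across autosomes.

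**Figure D5:**
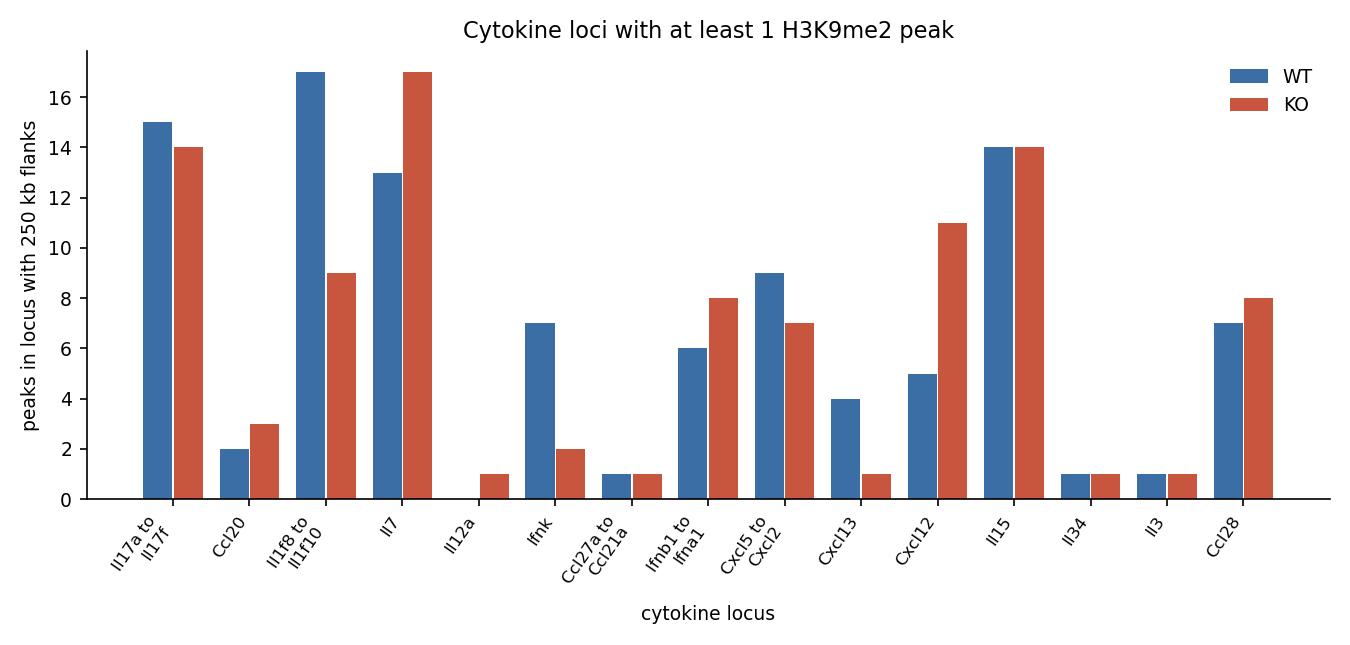
Number of peaks (vertical axis) in the 15 cytokine loci with at least 1 peak, each taken from its first to its last gene with 250 kb on either side (horizontal axis); blue bars are WT and red bars KO, 1 library each. The loci of Il17a, Il1f8, Il7, Il15 and Cxcl12 reach 10 or more peaks in a library.

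A few loci carried most of the peaks. The 5 with 10 or more peaks in either library held 64 of 102 WT peaks (62.7%) and 65 of 98 KO peaks (66.3%). These 5 were picked by their peak counts, so a large share follows in part from the choice. The same share was not computed for loci of other genes, so it is not read as particular to cytokine loci. Around Il7 there were 13 WT and 17 KO peaks (ratio 1.31, 0.598 to 2.93), and around Il15, which supports memory T cells and natural killer cells, 14 and 14 (1.0, 0.442 to 2.26). The Il17a and Il17f locus had 15 and 14 (0.933, 0.417 to 2.07). The locus from Il1f8 to Il1f10 had 17 in WT and 9 in KO (0.529, 0.208 to 1.26), and Cxcl12, the homing chemokine of marrow stroma, had 5 and 11 (2.2, 0.705 to 8.08). The genes of the interleukin 1 family therefore fell into a peak-rich group on chromosome 2 near 24 Mb and a group without peaks nearby, Il1a, Il1b, Il18 and Il33.

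Of the 5 loci with 10 or more peaks, those of Cxcl12, Il15 and Il7 had 1.95, 3.50 and 5.54 coding genes per Mb. These values were under the autosomal average of 8.55, while the loci of Il17a and Il1f8 had 12.6 and 15.6. That average is taken over the whole autosomal span, whereas each locus window is built around a member and so always holds a coding gene. The 5 loci with 10 or more peaks had a median of 5.54 coding genes per Mb (1.95 to 15.6), the 15 loci with any peak 13.9 (1.95 to 42.2), and the 28 without 24.4 (5.40 to 61.3). The ranges overlap, and the Il22 and Ifng locus, with 5.40 genes per Mb, and Il12b, with 7.77, were loci under that average without a peak. These are 43 loci of the same 2 libraries, given as a description.

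Single members whose neighbourhoods differed by 2-fold or more between the libraries, with 5 or more peaks in the higher one, were few. Fewer peaks in KO were counted at Ifnk (7 and 2), Il1f5 and Il1f10 (14 and 6 at both, the same peaks), or 3.19% of members against 1.41% of all coding genes. More peaks in KO were counted at Cxcl12 (5 and 11), or 1.06% against 1.81%. The intervals of these ratios all include 1, at 0.0290 to 1.5 for Ifnk, 0.135 to 1.19 for Il1f5 and Il1f10, and 0.705 to 8.08 for Cxcl12. Cxcl13, the chemokine that draws B cells into follicles, had 4 and 1 (0.250, 0.00508 to 2.53).

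Genes that receive, respond to or induce these ligands were counted in the same way. Of 60 receptor genes 1 had a peak in its window in each library, Il1rap, the shared receptor chain of the interleukin 1 family, with 1 peak in WT and 1 in KO. Of 26 interferon response genes 1 did, Ifi44, with 1 and 1. None of 19 genes of interferon induction, among them Irf3, Irf7 and Myd88, had one in either library. Of 38 other cytokine ligands Kitl, the stem cell factor, had 4 and 4 peaks, and Tgfb2, a transforming growth factor beta gene, had 1 in WT and 0 in KO. Ifne, the interferon epsilon gene just past the type I cluster, had none. The shares were 1.67% for receptors and 3.85% for response genes in both libraries, and 5.26% in WT and 2.63% in KO for other ligands. Over all coding genes they were 9.45% and 9.66%, a background not matched for length. The lists had median windows of 9.41 to 24.1 kb. All coding genes in the 3 length classes under 50 kb had shares of 3.35% to 6.65%. In the class of 50 kb or more, to which Il1rap, Kitl and Tgfb2 belong, they had 22.7% in WT and 23.2% in KO. Counts this small were not read as a difference from that background.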

How the data were processed

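The data were H3K9me2 CUT&Tag peak lists of 2 libraries, grouped by the genotype in the labels, 1 WT and 1 KO. The authors ran MACS2 2.2.7.1 on each library alone, per the file headers, as broad calls at a q-value of 0.01 with duplicates kept and no control, with a local background of 10000 bp and d of 292 bp (WT) and 189 bp (KO). Bowtie2 2.4.2, Trim Galore 0.6.6, SAMtools 1.11 and mm10 are listed in the submitters' processing notes. Pileup is a deposited coverage signal on each library's own scale. The authors gave p-values and q-values as −log10, and fold enrichment as a ratio to local background. These values were used within a list only. With no control, sites with high reads irrespective of the antibody remain in the lists.

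Genes came from RefSeq GRCm38.p6. Scaffold genes listed under a chromosome (333) were left out, Ccl21c among them. A peak counted in a window at 1 bp of overlap and in a region by its midpoint. Python 3.11.15, pandas 2.3.3, scipy 1.17.1 and biopython 1.88 were used. Alternatives were a stricter q-value, wide peaks, merged peaks, widened KO peaks, no towers, other flanks and reciprocal overlap. The 2-fold rule, the tiles and the case without the interferon cluster were chosen after seeing these values. Members and lists were chosen with earlier results of these data known. Named genes were all members with a peak in the window or within 20 kb, the 5 nearest and 5 farthest others, the type I interferons as a group and 14 listed cytokines; other members, such as Cxcl1, Cxcl2 and the Ccl21 genes, were named after their values were seen. The counts for the cell type marker lists are not reported here. On simulated peaks at 200 genes per list, 200 distances were recovered.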

Additional observations from a re-analysis of the deposited data

How the results depend on the processing

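Merging peaks within 5 kb, extending KO peaks to make up for the smaller d, and dropping pileups of 100 or more left the counts of members, member peaks, cluster peaks and neighbourhoods within 1.5 times and the median distances at 426 and 437 kb. Stricter limits left fewer peaks by construction. At a q of 1e-05 or lower, 1 member (Il7) had a window peak in WT and 0 in KO (2 and 0 peaks), against 3.24% and 2.44% of all genes, the interferon cluster with flanks held 1 and 2 peaks, and median distances were 955 and 1180 kb (884 and 1011 kb over all genes). At that q, 9 members in WT and 16 in KO had a peak within 250 kb, KO above WT and not below as in the report. The strict lists held 3880 WT and 2487 KO autosomal peaks. The cluster's remaining 1 WT and 2 KO peaks were all overlapped (100%) by a peak of the other library's full list. The WT partner of 1 of these KO peaks, at 89040384, had a −log10 q-value of 3.67 and was not in the strict list. Among peaks at least 1 kb wide, 0 members and 0 peaks remained in WT windows and 0 and 0 in KO windows, against 2.24% and 1.75% of all genes, the cluster held 0 and 0, 4 and 7 members had a peak within 250 kb, and median distances were 1332 and 2576 kb (1368 and 1889 kb over all genes). Gene bodies alone gave 1 member in WT and 1 in KO (2 peaks in each library). Flanks of 10 kb gave 7 and 5 members with 10 and 9 peaks. The cluster alone held 1 and 0 peaks, and with 1 Mb flanks 22 and 18, so the higher library differed with the flank. Within 100 kb, 23 WT and 17 KO members had a peak, and within 500 kb 49 and 51 did. Without the cluster genes 23 and 25 members did within 250 kb. The order of the libraries in this count thus turned to KO above WT at the strict q, for wide peaks, at 500 kb and without the cluster. For these alternatives, apart from the case without the cluster, the neighbourhood and flank counts were not computed over all coding genes. They therefore have no background share and cannot tell members from other genes. Of 78 values computed 37 moved, and the cause beyond the construction of each limit was not tested. Keeping numbered receptors and non-ligands (118 genes) gave 4 and 3 genes. No paired analysis was possible because each genotype has 1 library. Peaks were called against a local background of 10000 bp without a control. Their median widths were 488 bp in WT and 377 bp in KO. With such calls and at these depths, a region under the calling threshold cannot be told from one without the mark.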
